A study of Mus musculus with 30 samples.

Results

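The distal ends of the 19 mouse autosomes were examined for vector insertion sites. A distal window comprised the sites whose start lay less than 2000000 bp below the largest start seen on that chromosome in any of 30 livers, and its density was set against the 10 Mb before it on the same chromosome. The 19 windows held 37911 of 2181734 site records, of which 20499 came from piggyBac (PB) livers and 17412 from Sleeping Beauty (SB) livers. They were the last of 1092 windows of 2 Mb that were counted back from the distal ends and tested together.

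All livers came from mice of the TT1 model, in which the Fah gene is knocked out. Fah encodes fumarylacetoacetate hydrolase, which carries out the final step of tyrosine degradation, and its loss causes tyrosinemia. The mice had received transposon-based gene therapy in vivo, with the PB vector system in 17 livers and the SB vector system in 13. Insertion sites were mapped in genomic DNA of whole livers by streptavidin-based enrichment sequencing (SBE-seq), in which fragments that hold a transposon end are enriched by nested PCR. The labels give neither the age of the mice nor a time after treatment, and do not say how livers numbered 13 and above differed from the others.

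Mouse chromosomes are telocentric, so low coordinates lie beside the centromere and the largest coordinates beside the distal telomere. Subtelomeric DNA is rich in repeats and recent duplications, which limits the reads that can be placed there. PB and SB are DNA transposons that are cut from a plasmid by their transposase and pasted into the genome, PB at TTAA and SB at TA target sites. PB is known for a preference for open chromatin near active genes, and SB for a distribution closer to random.

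PB livers held 16364 to 124238 sites and SB livers 4893 to 120220. SB liver 13, with 4893 sites, stood apart from the other 12 SB livers, whose lowest number was 34929. Its distal windows held 87 sites in all, so single windows of that liver rest on few sites. Several of the results that it moves are given with and without it. PB livers 13 to 17 held 280 to 683 distal sites, against 1089 to 2150 in PB livers 1 to 12. Files give sites, not cells, and the sites come from amplified reads without molecular identifiers. The p-values below measure the spread between livers. The labels do not say in words that each liver came from its own animal.

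The largest start of a chromosome came from a PB liver on 3 chromosomes and from an SB liver on 16. The largest PB and the largest SB start lay a median of 1241 bp apart, with a range of 53 to 10102 bp. Both groups thus reached the same ends to within a small part of the window. How far these starts lie from the assembled chromosome ends was not analysed here, and no sequence of the windows was printed because a genome of the files' build, GRCm39, was not used here.

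Taken over all 19 chromosomes, the distal windows were slightly denser than the 10 Mb before them in both groups, and less so with PB than with SB. Density was expressed as sites per Mb per 10000 autosomal sites of the same liver. It averaged 4.56 ± 0.19 in the distal windows and 4.27 ± 0.09 in the 10 Mb before them in PB livers (SD, n = 17). In SB livers it averaged 5.00 ± 0.12 in the distal windows and 4.46 ± 0.08 before them (SD, n = 13). The distal windows took 1.73% ± 0.07 of the autosomal sites of a PB liver and 1.90% ± 0.05 of those of an SB liver.

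The ratio of distal density to the density of the 10 Mb before it was 0.974 at the lowest, 1.06 at the median and 1.15 at the highest of the PB livers, and 1.09, 1.13 and 1.21 in the SB livers. It exceeded 1 in 16 of 17 PB livers and in 13 of 13 SB livers. The groups overlapped: 11 PB livers lay below all SB livers, the other PB livers lay within the SB range, and 1 SB liver, liver 4, lay above all PB livers. The mean ratio was 1.07 ± 0.05 in PB livers and 1.12 ± 0.03 in SB livers (SD). As a summary over regions chosen with earlier results known, it has no test.

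The ratio averaged 1.10 ± 0.05 in PB livers 13 to 17 (SD, n = 5) and 1.05 ± 0.04 in PB livers 1 to 12 (SD, n = 12). In SB livers 1 to 12 it averaged 1.12 ± 0.03. The difference between PB and SB was therefore present among livers 1 to 12 of both groups, where PB was 0.935 of SB, compared with 0.950 over all livers. The order of the groups depended on the width of the window: with 1 Mb in place of 2 Mb, PB was 1.017 of SB. The ratio of the PB livers also depended on the region before the window and came to 0.989 when this was 5 Mb long.

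**Figure D1:**
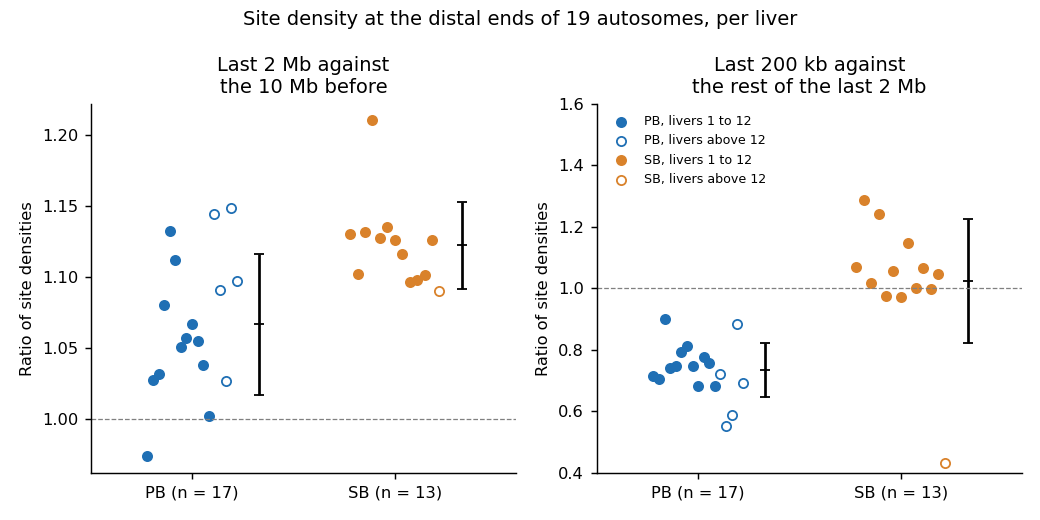
Ratios of site density per liver over the 19 autosomes: left, the last 2 Mb over the 10 Mb before (no unit), right, the last 200 kb over the rest of the last 2 Mb. Points are livers (17 PB, 13 SB; open points, livers numbered above 12), and bars show the mean and 1 SD. In the left panel 11 PB livers lie below all SB livers; in the right panel the PB livers span 0.553 to 0.902, and the low SB point at 0.434 is liver 13 with 4 sites.

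The summed ratio hid large differences between chromosomes. In PB livers the mean distal density ran from 1.26 ± 0.26 sites per Mb per 10000 on chromosome 17 to 7.58 ± 0.79 on chromosome 6 (SD, n = 17). In SB livers it ran from 2.17 ± 0.33 on chromosome 3 to 7.20 ± 1.32 on chromosome 9 (SD, n = 13). Each window was compared with the 10 Mb before it by a limma model of the per-liver log2 ratio, with p-values adjusted by Benjamini-Hochberg over all 1092 windows and a threshold of 0.05. In PB livers 17 of 19 distal windows passed, 11 higher and 6 lower than the 10 Mb before. Over all windows 89.6% passed, 42.7% higher and 46.9% lower. In SB livers 19 of 19 passed, 13 higher and 6 lower, while over all windows 84.5% passed, 42.2% higher and 42.3% lower. Passing was thus near the background in PB, as neighbouring stretches of these chromosomes mostly differed in density.

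The median log2 ratio over the 19 distal windows was 0.14 in PB livers, against -0.05 over all 1092 windows. In SB livers it was 0.26 over the distal windows and -0.02 over all windows. The groups mostly went the same way. Both were higher in the distal window on chromosomes 1, 2, 4, 5, 6, 8, 9, 11, 15, 18 and 19, and both were lower on chromosomes 3, 10, 12, 13, 14 and 17. On chromosomes 7 and 16 the window did not pass the test in PB livers and was higher than the 10 Mb before in SB livers. Some of these calls were lost when a single liver was left out. In PB livers, chromosome 18 was lost without liver 2, 3, 6, 7 or 10 (adjusted p = 0.051 to 0.0892) and chromosome 19 without liver 8 or 11 (adjusted p = 0.0513 and 0.0554). In SB livers, chromosome 6 was lost without liver 1, 8, 9 or 12 (adjusted p = 0.0675 to 0.18) and chromosome 8 without liver 3, 7, 8, 11 or 12 (adjusted p = 0.0542 to 0.102). Across the 19 windows the PB and SB log2 ratios correlated with Pearson's r = 0.907, against 0.947 across all 1092 windows, as a description of windows that share livers and genome.

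**Figure D2:**
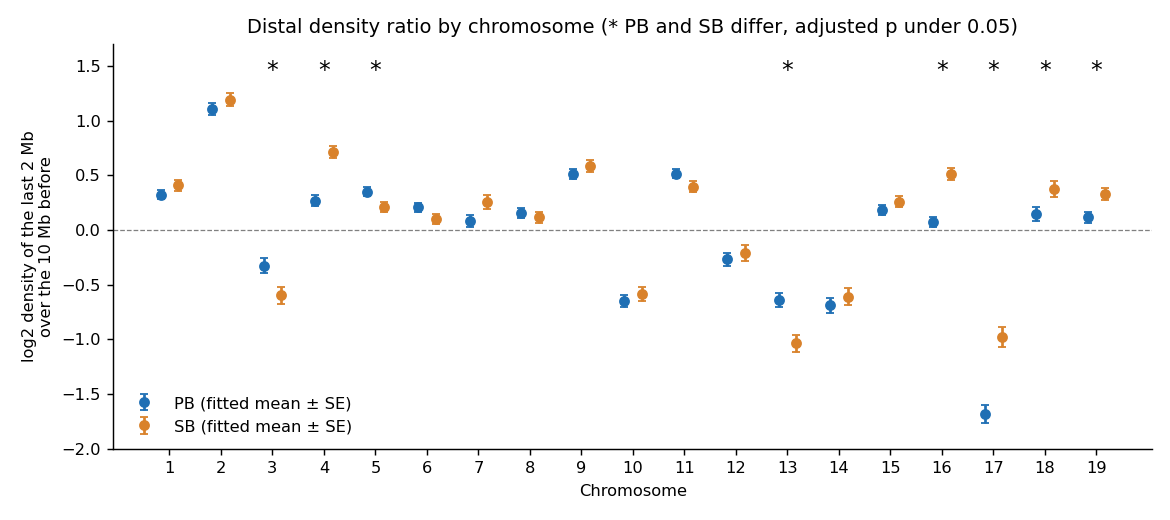
The log2 ratio of distal density to the density of the 10 Mb before it, by chromosome, as the fitted mean ± SE of 17 PB livers and 13 SB livers. Stars mark the 8 chromosomes on which PB and SB differed with an adjusted p under 0.05. PB and SB points lie close together on most chromosomes, but apart on chromosomes 13 and 17, among others with a star. Values run from about 1.1 and 1.2 on chromosome 2 to the low values on chromosomes 10, 13, 14 and 17.

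Chromosome 2 had the highest ratio in both groups (window chr2:179653282-181653281, GRCm39). The ratio was 1.78, 2.27 and 3.57 at the lowest, median and highest of the PB livers, and 1.39, 2.40 and 2.61 in the SB livers, so every liver was above 1. The lowest SB value was that of liver 13, and the lowest of SB livers 1 to 12 was 1.55. The fitted log2 ratio was 1.10 (SE 0.05, adjusted p = 6.91e-44, limma) in PB livers and 1.19 (SE 0.06, adjusted p = 1.6e-40) in SB livers. The distal density itself was moderate, 4.62 ± 1.00 in PB and 5.78 ± 0.76 in SB livers, whereas the 10 Mb before it was the sparsest of the 19 in both groups, with 1.98 ± 0.19 in PB and 2.61 ± 0.41 in SB livers.

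On chromosome 9 (chr9:122252030-124252029) the ratio was 1.21, 1.45 and 2.45 at the lowest, median and highest PB liver and 1.17, 1.56 and 1.90 in SB livers. All livers of both groups were again above 1. The window was 1.43-fold denser than the 10 Mb before it in PB livers (log2 0.51, SE 0.05, adjusted p = 8.14e-21, limma) and also denser in SB livers (log2 0.59, SE 0.05, adjusted p = 1.79e-20).

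Chromosome 11 (chr11:119873112-121873111) had a fitted ratio in PB livers within the error of that of chromosome 9, with 1.21, 1.42 and 1.78 at the lowest, median and highest PB liver. In SB livers the values were 0.455, 1.35 and 1.49, and the lowest again belonged to liver 13. Without it the SB livers started at 1.04. The fitted density was 1.43-fold that of the 10 Mb before in PB livers (log2 0.52, SE 0.04, adjusted p = 9.28e-24, limma) and 1.32-fold in SB livers (log2 0.40, SE 0.05, adjusted p = 2.72e-13).

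At the other end of the range, chromosome 17 (chr17:93194315-95194314) had the lowest ratio in PB livers, at 0.174, 0.313 and 0.378 for the lowest, median and highest. The SB livers had 0.306, 0.521 and 0.970. No liver of either group reached 1. The fitted log2 ratio was -1.68 (SE 0.08, adjusted p = 2.13e-44, limma) in PB livers and -0.98 (SE 0.09, adjusted p = 5.79e-19) in SB livers.

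Chromosome 13 (chr13:118781397-120781396) had 0.374, 0.686 and 0.938 at the lowest, median and highest PB liver and the lowest ratio of the SB livers, at 0.25, 0.463 and 0.606. The lowest SB value was that of liver 13, from 1 distal site, and SB livers 1 to 12 started at 0.403. All 30 livers were below 1. Part of this window, from 800 to 1100 kb below the largest start, held no site in any liver. The fitted log2 ratio was -0.64 (SE 0.07, adjusted p = 1.67e-17, limma) in PB livers and -1.04 (SE 0.07, adjusted p = 9.93e-28) in SB livers.

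Chromosomes 14 and 10 were sparse in both groups too. On chromosome 14 (chr14:123038381-125038380) the ratio was 0.403, 0.627 and 0.903 at the lowest, median and highest PB liver and 0.509, 0.662 and 0.910 in SB livers, with every liver below 1. The window was 0.621 times as dense as the 10 Mb before it in PB livers (log2 -0.69, SE 0.07, adjusted p = 4.67e-18, limma) and 0.656 times in SB livers (log2 -0.61, SE 0.08, adjusted p = 2.89e-12). On chromosome 10 (chr10:128429721-130429720) PB livers had 0.404, 0.652 and 0.950, and SB livers had 0.539, 0.677 and 1.52. The only value above 1 was that of SB liver 13, and SB livers 1 to 12 ended at 0.789. The log2 ratio on chromosome 10 was -0.65 (SE 0.06, adjusted p = 4.19e-22, limma) in PB livers and -0.59 (SE 0.06, adjusted p = 1.55e-15) in SB livers.

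The direction of these ratios depended on how much of the chromosome end was taken. With windows of 3 Mb, chromosomes 10 and 14 were denser than the region before them in both groups, with log2 ratios of 0.55 in PB and 0.10 in SB livers on chromosome 10 and of 0.20 in PB and 0.19 in SB livers on chromosome 14. Of chromosomes 2, 9, 11, 13 and 17, chromosome 2 changed direction in PB livers with windows of 5 Mb, to a log2 ratio of -0.10, and the other 4 kept their direction within each group under every setting tried.

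PB and SB were then compared on each chromosome by the difference of their log2 ratios in the same model. The difference passed on 8 of 19 distal windows, on 3 of which PB was higher and on 5 lower than SB. Over all windows 59.9% passed, 24.3% with PB higher and 35.6% with PB lower, so at this setting the share among distal windows was below the background. Without SB liver 13 the difference passed on 7 of 19. The median difference (PB minus SB, log2) was -0.07 over the distal windows and -0.06 over all windows. The count and its split depended on the setting, and 12 of 19 passed with windows of 1 Mb and 12 against 20 Mb. Shares over all windows are not given for these other settings, so their counts have no background here. With windows of 1, 3 and 5 Mb, PB was higher on 5, 5 and 4 windows and lower on 7, 6 and 6. Against a region of 5 Mb it was higher on 3 and lower on 8, and against 20 Mb higher on 2 and lower on 10. With positions shared between livers left out, 3 windows were higher in PB and 3 lower. Several calls depended on the width of the window. Those on chromosomes 4 and 19 were lost with 1 Mb, those on chromosomes 13 and 19 with 3 Mb, and those on chromosomes 16 and 19 with 5 Mb, and with 5 Mb the differences on chromosomes 13 and 3 turned round, to log2 values of -0.12 each. Without weights the calls on chromosomes 3, 5 and 18 were lost.

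PB was lower than SB at the ends of chromosomes 17, 4, 16, 18 and 19. The largest difference was on chromosome 17, whose per-liver ratios are given above. Every one of the 17 PB livers lay below the SB median, and 12 of 13 SB livers lay above the PB median. The ratio in PB livers was 0.614 of that in SB livers (log2 -0.70, SE 0.12, adjusted p = 4.75e-07, limma). When positions found in more than 1 liver, which are mostly PB positions, were left out, the log2 difference was -0.25 with an adjusted p of 0.17. The same setting ended the calls on chromosomes 18 (log2 -0.13, adjusted p = 0.391), 19 (log2 -0.17, adjusted p = 0.129) and 3 (log2 0.26, adjusted p = 0.0927).

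On chromosome 4 (chr4:154606037-156606036) the ratio was 0.714, 1.24 and 2.06 at the lowest, median and highest PB liver, against 1.19, 1.65 and 2.12 in SB livers. The ranges overlapped, but 16 of 17 PB livers lay below the SB median. The window was 1.20-fold denser than the 10 Mb before it in PB livers and 1.64-fold in SB livers, a log2 difference of -0.45 (SE 0.07, adjusted p = 9.58e-08, limma). Both regions differed between the groups. Distal density was 5.55 ± 1.14 in PB and 6.17 ± 0.82 in SB livers. The 10 Mb before was denser in PB, at 4.52 ± 0.49 in PB and 3.71 ± 0.33 in SB livers.

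On chromosome 16 (chr16:95907394-97907393) PB livers had 0.871, 1.06 and 1.32 at the lowest, median and highest, and SB livers 0.833, 1.42 and 1.85. The lowest SB value came from liver 13, and SB livers 1 to 12 started at 1.12. All 17 PB livers lay below the SB median. The log2 difference was -0.44 (SE 0.07, adjusted p = 7.9e-08, limma), the fitted ratio being 1.05 in PB livers, which did not pass the test against 1 (adjusted p = 0.15), and 1.43 in SB livers (adjusted p = 3.57e-16).

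The differences on chromosomes 18 and 19 were smaller. On chromosome 18 (chr18:88619451-90619450) the fitted ratio was 1.10 in PB and 1.30 in SB livers, with 13 of 17 PB livers below the SB median (log2 difference -0.23, SE 0.10, adjusted p = 0.033, limma). On chromosome 19 (chr19:59319428-61319427) it was 1.08 in PB and 1.25 in SB livers, with 14 of 17 PB livers below the SB median (log2 difference -0.21, SE 0.07, adjusted p = 0.008). The call on chromosome 18 was lost without any one of PB livers 1 and 9 and SB livers 6, 7, 11 and 12 (adjusted p = 0.0515 to 0.0641), and in edgeR's quasi-likelihood test (adjusted p = 0.053).

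Relative to the 10 Mb before, PB was higher than SB at the ends of chromosomes 13, 3 and 5. On chromosome 13 the ranges overlapped, but 15 of 17 PB livers lay above the SB median and all 13 SB livers lay below the PB median. The PB ratio was 1.32-fold that of SB (log2 0.40, SE 0.10, adjusted p = 0.00029, limma). Both groups were sparser there than in the 10 Mb before, so the window was less depleted with PB.

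On chromosome 3 (chr3:157642991-159642990) the ratio was 0.581, 0.802 and 1.05 at the lowest, median and highest PB liver and 0.513, 0.673 and 1.25 in SB livers. The highest SB value was that of liver 13, without which the SB livers ended at 0.878. The PB ratio was 1.21-fold the SB ratio (log2 0.27, SE 0.10, adjusted p = 0.018, limma), with 15 of 17 PB livers above the SB median. Without SB liver 11 the adjusted p was 0.065, and against a region of 20 Mb the log2 difference was 0.10 with an adjusted p of 0.391. With windows of 1 Mb the difference on chromosome 3 changed direction, to a log2 value of -0.43.

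On chromosome 5 (chr5:149657958-151657957) PB livers had 0.991, 1.30 and 1.53 at the lowest, median and highest, and SB livers 0.476, 1.16 and 1.40. The lowest again came from SB liver 13, and SB livers 1 to 12 started at 0.928. The PB ratio was 1.10-fold the SB ratio (log2 0.14, SE 0.06, adjusted p = 0.049, limma), with 12 of 17 PB livers above the SB median. The call was lost without any one of PB livers 2, 4, 5, 7, 9, 10, 11, 13, 15 and 16 and SB livers 1, 5, 6, 7, 9, 10, 12 and 13 (adjusted p = 0.0515 to 0.134), and the log2 difference was -0.06 against a region of 5 Mb.

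The other 11 windows did not pass the test of PB against SB. Their log2 differences ran from -0.18 on chromosome 7 (SE 0.08, adjusted p = 0.06, and 0.0283 to 0.0496 without any one of PB livers 5, 8, 13, 14 and 17 and SB livers 2, 7, 8 and 9) to 0.12 on chromosome 11 (SE 0.06, adjusted p = 0.098), with chromosome 6 at 0.11 (adjusted p = 0.12, and 0.0469 without SB liver 9) and chromosome 8 at 0.04 (adjusted p = 0.63). Chromosomes 1, 2, 9, 10, 12, 14 and 15 lay between -0.09 and -0.06. Each of these 11 passed under at least one other setting. Chromosome 8 was higher in PB with windows of 1 Mb (log2 0.37, adjusted p = 0.000264), of 3 Mb (log2 0.43, adjusted p = 5.77e-11) and of 5 Mb, and without positions in more than 1 liver (log2 0.35, adjusted p = 0.000386). Chromosome 6 was higher in PB with windows of 1 Mb (log2 0.28, adjusted p = 0.00055) and of 3 Mb and against 5 Mb, and chromosome 11 with windows of 1 Mb (log2 0.20, adjusted p = 0.03).

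Chromosome 7 was lower in PB with windows of 1 Mb (log2 -0.49, adjusted p = 0.000468) and of 3 Mb (log2 -0.34, adjusted p = 2.84e-05) and against 20 Mb (log2 -0.30, adjusted p = 0.000537). Chromosomes 10 and 14 were lower in PB with windows of 1 Mb (log2 -0.69 and -0.60) and against 5 Mb. With windows of 5 Mb they were higher in PB, at log2 0.42 (adjusted p = 9.14e-13) on chromosome 10 and 0.41 (adjusted p = 1.72e-08) on chromosome 14, and chromosome 10 was also higher with 3 Mb. Chromosome 1 was lower in PB without positions in more than 1 liver (log2 -0.31, adjusted p = 0.00152) and against 5 or 20 Mb. Chromosomes 2, 9 and 12 were lower in PB with windows of 5 Mb and against 20 Mb, and chromosome 15 with windows of 3 Mb (log2 -0.20, adjusted p = 0.00204).

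Of the windows not described above, chromosomes 1, 6, 8 and 15 were denser than the 10 Mb before in both groups. Their fitted ratios were 1.25, 1.15, 1.11 and 1.14 in PB livers and 1.33, 1.07, 1.08 and 1.20 in SB livers. Chromosome 12 was sparser, at 0.830 in PB and 0.863 in SB livers. Against 5 Mb the direction turned in both groups on chromosome 12 (log2 0.65 in PB and 0.42 in SB livers), 8 (-0.15 and -0.14) and 15 (-0.096 and -0.035). It also turned on chromosome 6 in SB livers (-0.058). With windows of 1 Mb it turned on chromosome 15 (-0.45 in PB and -0.28 in SB livers). Chromosome 7 had a ratio of 1.06 in PB livers (adjusted p = 0.15) and 1.20 in SB livers (adjusted p = 0.00011).

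**Figure D3:**
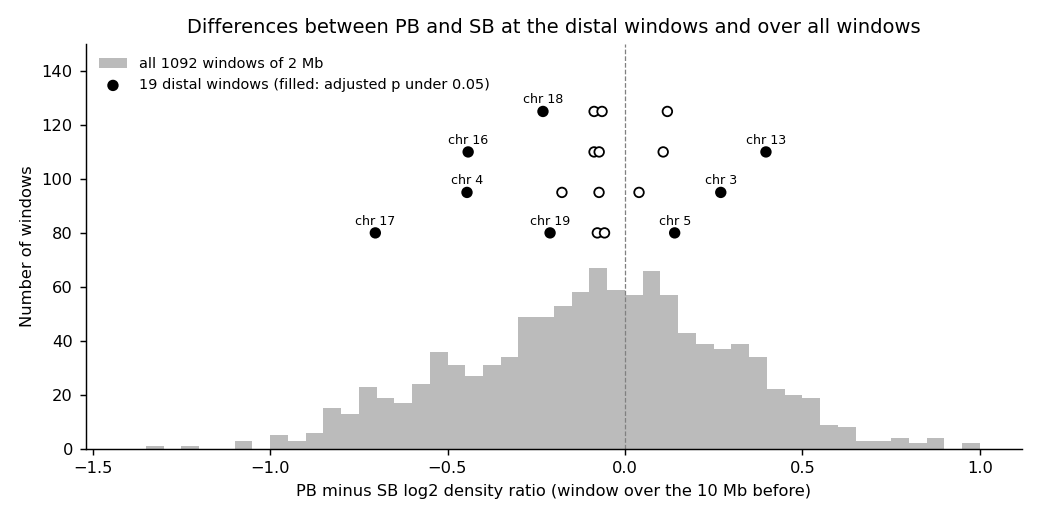
Difference between PB and SB in the log2 density ratio (PB minus SB, window over the 10 Mb before). Grey bars count all 1092 windows of 2 Mb, and points (height without meaning) are the 19 distal windows, filled where the adjusted p was under 0.05. The distal windows spread from -0.70 on chromosome 17 to 0.40 on chromosome 13, inside the range of all windows, -1.34 to 0.98.

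The same windows were compared as a share of all autosomal sites, without the 10 Mb before them, by limma-voom over 1187 windows. PB and SB differed on 14 of 19 distal windows, 3 with PB higher and 11 with PB lower. Over all windows 59.8% passed, 22.1% with PB higher and 37.7% with PB lower. With trimmed-mean (TMM) scaling, which shifted the median window by 0.07 on the log2 scale, the distal counts were 5 higher and 10 lower, and over all windows 28.9% were higher and 31.8% lower. Chromosomes 5 and 10 passed with that scaling (adjusted p = 0.0104 and 0.0413), and chromosome 1 did not (log2 -0.12, adjusted p = 0.0956). PB took a larger share than SB at the ends of chromosomes 13 (log2 0.25, SE 0.09, adjusted p = 0.018, limma), 3 (log2 0.22, SE 0.09, adjusted p = 0.032) and 6 (log2 0.20, SE 0.06, adjusted p = 0.0032). The call on chromosome 3 was lost without PB liver 6 or without SB liver 3, 10, 11 or 12 (adjusted p = 0.0518 to 0.104), with a support of at least 10 (adjusted p = 0.0998) and in edgeR's quasi-likelihood test (adjusted p = 0.0562). That on chromosome 6 was lost without positions in more than 1 liver (log2 0.075, adjusted p = 0.482).

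PB took the smallest share relative to SB on chromosomes 17 (log2 -0.74, SE 0.12, adjusted p = 3.09e-08, limma) and 7 (log2 -0.59, SE 0.07, adjusted p = 3.32e-11). On chromosome 7 the PB and SB windows differed in share while their ratios to the 10 Mb before did not pass. The region before it was itself sparser in PB, at 3.18 ± 0.47 sites per Mb per 10000 in PB livers and 4.29 ± 0.34 in SB livers. Chromosomes 16, 18, 2, 12, 19, 9, 14, 4 and 1 had log2 differences of share from -0.45 to -0.19 that passed. Without positions in more than 1 liver, chromosomes 12, 14 and 18 did not pass (adjusted p = 0.245, 0.916 and 0.257). Chromosomes 5, 8, 10, 11 and 15 had differences from 0.03 to 0.11 that did not.

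Within the 2 Mb, density changed from 1 stretch of 500 kb to the next, in a pattern that differed by chromosome. On chromosome 6 the last 500 kb held 14.1 ± 2.4 PB sites and 9.69 ± 1.99 SB sites per Mb per 10000 (SD, n = 17 and 13), while the stretch from 1.5 to 2 Mb held 3.40 ± 1.36 PB and 4.73 ± 1.03 SB sites. Chromosomes 10, 12, 14 and 15 ran the other way. On chromosome 10 the last 500 kb held 1.74 ± 1.16 PB and 2.49 ± 0.91 SB sites. The stretch from 1.5 to 2 Mb held 10.8 ± 2.4 PB and 8.84 ± 3.96 SB sites, with SB liver 13 included. Most of the sites of that window thus lay next to its inner limit, where a wider window changed its direction.

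On chromosome 15 the last 500 kb held 1.52 ± 0.92 PB and 2.69 ± 1.33 SB sites, against 10.5 ± 1.4 PB and 7.94 ± 1.66 SB sites from 1.5 to 2 Mb. Chromosome 3 was sparse between 500 and 1500 kb, with 0.750 ± 0.366 PB and 1.34 ± 1.10 SB sites from 500 to 1000 kb. Its stretch from 1.5 to 2 Mb held 6.06 ± 1.47 PB and 3.80 ± 1.45 SB sites, where the PB mean was well above the SB mean. On chromosome 13 the middle of the window was densest, with 4.70 ± 1.27 PB and 3.09 ± 1.40 SB sites from 1 to 1.5 Mb, and the outer stretches held 0.995 to 1.49 sites in either group. Between 800 and 1100 kb, however, that window held no site in any liver. Whether reads can be placed there was not analysed.

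On chromosome 17 all 4 stretches were sparse in both groups, and the PB mean was below the SB mean in each. The last 500 kb held 2.30 ± 1.00 PB and 3.31 ± 1.29 SB sites, and the stretch from 1.5 to 2 Mb held 0.704 ± 0.467 PB and 1.92 ± 1.02 SB sites. No test was run on these stretches.

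**Figure D4:**
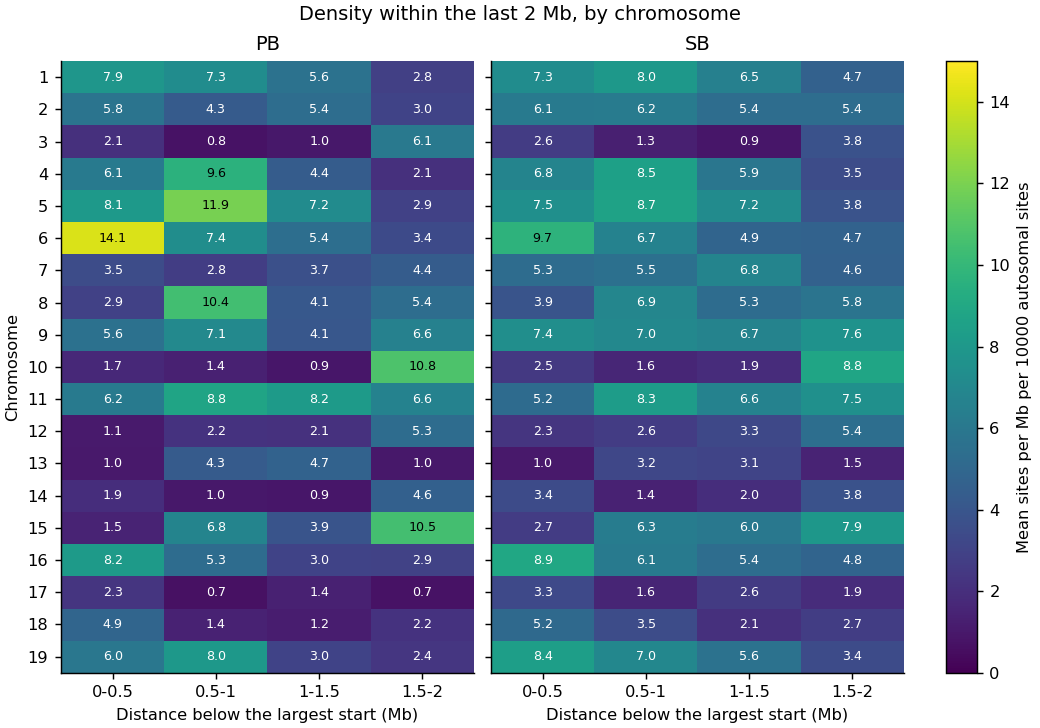
Mean density of sites (sites per Mb per 10000 autosomal sites, colour and number) in stretches of 500 kb counted from the largest start, for each autosome, in 17 PB livers (left) and 13 SB livers (right). The last 500 kb of chromosome 6 is the densest stretch in PB, at 14.1, and chromosomes 3, 10, 12, 13, 14, 17 and 18 hold PB stretches near 1.

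In steps of 100 kb, the densest PB bin lay on chromosome 6, 400 to 500 kb from the largest start (chr6:148987079-149087078). It held 38.9 ± 8.6 PB sites per Mb per 10000 (27.0, 38.0 and 56.2 at the lowest, median and highest liver) from 433 sites, against 12.9 ± 5.8 in SB livers from 120 sites. The bin was picked for its PB density, and the number of bins without overlap of the groups was not counted. In it the lowest PB liver exceeded the highest SB liver, at 23.5. This bin was also the densest SB bin when liver 13 was left out, at 13.97 sites per Mb per 10000.

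Both other dense PB bins lay on chromosome 5. The bin 500 to 600 kb from the largest start (chr5:151057958-151157957) held 26.1 ± 7.0 in PB livers and 12.2 ± 10.3 in SB livers, and the bin 300 to 400 kb from it (chr5:151257958-151357957) held 24.5 ± 5.3 in PB and 8.82 ± 5.19 in SB livers. Without SB liver 13 the SB means of these bins were 9.61 and 7.77. The bins were picked for their PB density, so these values are a description.

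By the mean over all 13 SB livers, the 3 densest SB bins lay on chromosomes 10, 16 and 9, and were picked for that density. On chromosome 16, 100 to 200 kb from the largest start (chr16:97707394-97807393), density was 14.2 ± 4.4 in PB and 12.96 ± 5.5 in SB livers. On chromosome 9 (chr9:122652030-122752029) it was 12.5 ± 6.2 in PB and 12.9 ± 4.8 in SB livers. The bin of highest SB mean, on chromosome 10 (chr10:128529721-128629720), had 10.6 ± 4.8 in PB and 13.2 ± 15.5 in SB livers, and 8.98 in SB livers without liver 13, which held 3 sites there. Of 380 bins, 3 held no site in any liver. They adjoined each other on chromosome 13, from 800 to 1100 kb below the largest start.

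The outermost 200 kb, called the tip here, were sparser in PB than in SB livers. This width was one of the settings tried and its values were described after they had been seen, so no test was run. The density of the tip was 0.553, 0.740 and 0.902 times that of the rest of the 2 Mb at the lowest, median and highest PB liver, and 0.434, 1.05 and 1.29 times in SB livers. The lowest SB value was that of liver 13, from 4 tip sites. SB livers 1 to 12 spanned 0.972 to 1.29 and did not overlap the PB livers. The mean was 0.735 ± 0.088 in PB livers, 1.02 ± 0.20 in SB livers (SD, n = 17 and 13) and 1.07 ± 0.10 in SB livers 1 to 12.

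The tips held 1579 PB and 1821 SB sites, a density of 3.44 ± 0.44 in PB and 5.10 ± 0.98 in SB livers, with SB liver 13 included. The next 200 kb held 5.34 ± 0.48 in PB and 5.23 ± 0.50 in SB livers, so the PB and SB means were close again there. Of 60 steps of 200 kb, the PB tip ranked 12 from the lowest. Further in, the PB mean was again below the SB mean in some steps, by less than at the tip. Examples are 1000 to 1200 kb (3.48 and 4.65) and 9400 to 9600 kb (3.12 and 4.34). In others it was above, as at 400 to 600 kb (6.13 and 5.54). Among the tips of single chromosomes, the ratio of tip to rest was lower in PB than in SB on 16 of 19. The exceptions were chromosomes 16 (2.44 in PB and 1.91 in SB), 17 (3.98 in PB and 1.89 in SB) and 18 (3.24 in PB and 2.59 in SB), on all of which the tip was denser than the rest in both groups. On chromosome 6 the ratio was 0.511 in PB, from 97 tip sites, and 1.38 in SB, from 161 tip sites.

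On the 16 chromosomes whose end was set by an SB site, the largest PB start lay at most 10102 bp below it. Whether this or the placing of reads bears on the sparser PB tip was not tested. Without the tips, PB and SB differed on 10 of 19 distal windows, 5 with PB higher and 5 lower. Over all windows, with tips included, 59.9% passed, 24.3% with PB higher and 35.6% with PB lower. The summed ratio without the tips was 1.09 in PB and 1.12 in SB livers, with PB at 0.978 of SB. Without the tip the ratio of chromosome 6 was higher in PB than in SB (adjusted p = 0.00087, limma), and so was that of chromosome 11 (adjusted p = 0.033).

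**Figure D5:**
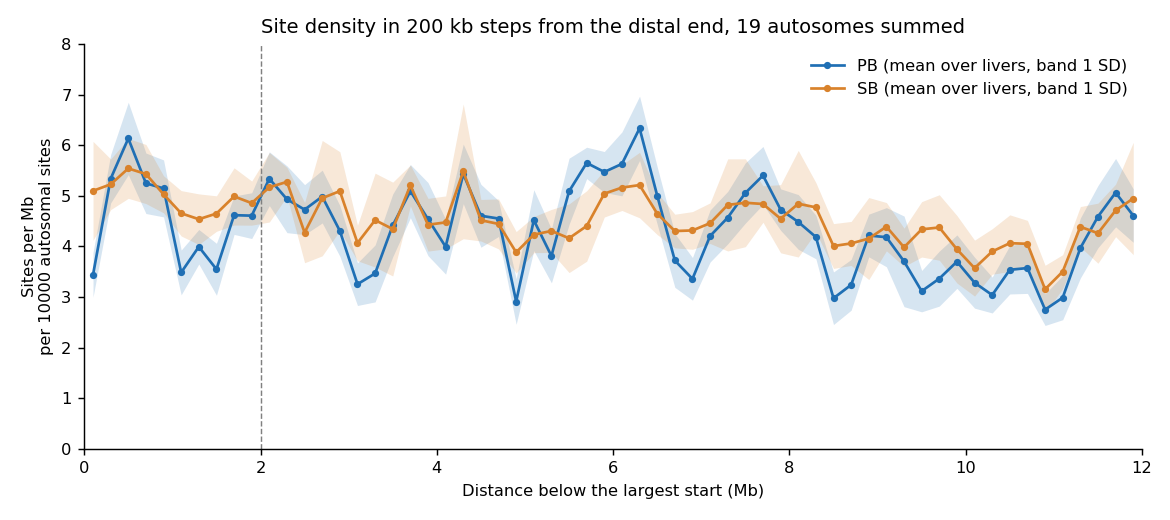
Site density (sites per Mb per 10000 autosomal sites) in steps of 200 kb over the last 12 Mb, summed over 19 autosomes. Lines are means over 17 PB and 13 SB livers and bands 1 SD; the dashed line marks the 2 Mb limit. The first PB point is at 3.44 and the first SB point at 5.10, and from the next step on the lines cross repeatedly.

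The 200 kb just inside the 2 Mb limit held 4.61 ± 0.45 in PB and 4.86 ± 0.44 in SB livers, and the 200 kb just outside it held 5.34 ± 0.53 in PB and 5.17 ± 0.69 in SB livers.

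Reuse of the same position was far more frequent in PB than in SB livers, in the distal windows as before them. In PB livers 32.0% ± 2.4 of the distal sites lay at a position and strand that occurred in another liver of the group, compared with 2.60% ± 0.50 in SB livers (SD, n = 17 and 13). In the 10 Mb before, the shares were 32.3% ± 1.7 in PB and 2.25% ± 0.18 in SB livers. The groups hold 17 PB and 13 SB livers. A liver's share is counted against the other livers of its group and was described without a test. In the tip it was 21.5% ± 5.0 in PB and 1.81% ± 1.48 in SB livers, from 20 to 167 tip sites per PB liver and 4 to 213 per SB liver.

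The PB sites of the distal windows fell on 14717 positions, of which 2689 occurred in at least 2 livers, 86 in at least 8 and 23 in at least 10. The SB sites fell on 16993 positions, of which 378 occurred in at least 2 livers and 18 in 3. Of the 86 PB positions of at least 8 livers, chromosomes 1 and 11 held 12 each and chromosome 5 held 10, while chromosomes 12 and 17 held none.

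No position occurred in more than 13 of 17 PB livers, and 4 positions did so. The first 3 of these by number of records, then by position, were chr5:151293165-151293168, with 24 records on both strands, chr5:151034136-151034139, with 16 records, and chr11:121407597-121407600, with 16 records. Their 4 bp span is that of the files' PB sites. The first lies inside the dense bin 300 to 400 kb from the end of chromosome 5. Of the 18 SB positions found in 3 of 13 livers, the first 3 in the same order, of 2 bp each, were chr5:150538125-150538126, chr2:181092876-181092877 and chr2:181485699-181485700. The largest start of chromosome 5, which sets the end of its window, was itself an SB position of 3 livers.

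Read support, the whole number the files give for each site, did not set the distal windows apart. The median support of distal sites over that of the 10 Mb before was 0.998 ± 0.026 in PB livers and 1.00 ± 0.03 in SB livers (SD). Sites on the minus strand made up 50.5% ± 1.6 of the distal sites in PB livers and 51.1% ± 1.9 in SB livers.

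The genes next to the chromosome ends were read from RefSeq's table of GRCm38.p6, for their names and order only. They were tied to no site, and whether they lie inside the windows was not analysed here. Among the ends sparse in both groups, chromosome 14 ends with Nalcn, a sodium leak channel of neurons, Itgbl1 and Fgf14, which modulates sodium channels of neurons. Chromosome 10 ends with a row of vomeronasal receptor genes, Vmn2r84 to Vmn2r87, and chromosome 13 with Tcstv3 and other members of multicopy families.

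At the ends denser than the 10 Mb before them in both groups, chromosome 2 has Oprl1, the nociceptin receptor, Myt1, a zinc finger factor of neural cells, Pcmtd2 and Polr3k, a subunit of RNA polymerase III. Chromosome 11 has Tbcd, a tubulin folding cofactor, B3gntl1 and Metrnl, a secreted factor. Chromosome 4, denser in both groups and less so with PB, has Noc2l, a histone acetyltransferase inhibitor, Klhl17 and Samd11. It ends with Vmn2r129, and chromosome 5, also denser in both groups, has Vmn2r18 near its end. Vomeronasal receptor genes thus lay at sparse and at dense ends. Chromosome 9 has Nlrp4g and Ppp2r3d among its last genes. The genes named here are a selection, which leaves out most genes with provisional names. Chromosome 6, with the densest PB bin, has Amn1, Resf1, a factor of retroelement silencing, and Bicd1, a dynein adaptor.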

How the data were processed

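Insertion sites in 17 PB and 13 SB livers were taken from the authors' deposited site lists, which give positions on GRCm39, strand and a whole number of at least 3 that was taken as read support. Per the submitters' processing notes, cutadapt and BWA were used, with no version given. The site filter is not given in the sources used here. Deposited merged tables with counts of records per position, for livers 1 to 12 of each group, matched the lists at all 13499 PB and all 16909 SB distal positions and were not used further.

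Windows of 2 Mb were counted back from the largest start of each autosome. Per-liver log2 ratios of window density to the 10 Mb before (0.5 site added per window, Poisson-based weights) were fitted with limma 3.58.1 in R 4.3.3 for windows averaging at least 5 sites and regions before them averaging at least 25. All 19 distal windows passed this filter. Shares of autosomal sites were fitted with limma-voom. P-values were adjusted by Benjamini-Hochberg over all windows. Other values used Python 3.11.15 and pandas 2.3.3. Sites were called shared where at least one other liver of the group had a site at that position on that strand. Fits were also run on simulated counts, with windows and the regions before them drawn independently. In the data these regions consist of neighbouring windows, so the simulation does not test the calls made here. Alternatives, edgeR 4.0.16 among them, covered widths, thinning to 4670 autosomal sites, support and left-out livers.

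The members, measures and settings were chosen with earlier results of these data known. All 19 windows are accounted for. Per-liver values are given for the 3 largest and 3 smallest differences and the 3 highest and lowest ratios of each group, and for the 3 densest bins and 3 positions of most livers per group. The labels do not say whether equal liver numbers pair the groups. Of 13 same-numbered pairs, 1 had deviations correlated above 0.1 (range -0.08 to 0.12), which cannot show whether livers were handled as pairs.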

Additional observations from a re-analysis of the deposited data

Results flagged for a closer look

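The X chromosome lies outside the comparisons of autosomes but held sites at its distal end. Its last 2 Mb (chrX:167288475-169288474) held 687 PB sites and 584 SB sites. Their density over that of the 10 Mb before was 1.21 in PB livers and 1.22 in SB livers when sites were summed. The lowest and highest single livers were at 0.545 and 2.08 for PB and at 0.667 and 1.88 for SB, with 2 of 17 PB and 3 of 13 SB livers below 1. No test was run on the X chromosome.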

How the results depend on the processing

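Each liver was one sample, and windows of the shallow livers rest on few sites, which limits what can be resolved by chromosome. Where values below moved, the cause was not tested, except that thinning leaves 4670 autosomal sites per liver and therefore little power. Of 19 distal windows, 8 differed between PB and SB with density set against the 10 Mb before, 17 passed within PB, 19 within SB, and 14 differed in share. After thinning with the filter, which leaves 3, 3, 3 and 9 of the 19 windows in these fits, 0 passed in each. Without the filter, a setting chosen after seeing the data, 0, 7, 7 and 1 passed. The unweighted fit gave 5 for the first count. Leaving out 1 liver gave 6 to 9, 16 to 17, 17 to 19 and 13 to 14.

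With the liver number as a replicate block (livers 1 to 13), 6, 17, 18 and 13 windows passed. The block ended the calls of PB against SB on chromosomes 5 (log2 0.13, adjusted p = 0.126) and 18 (log2 -0.22, adjusted p = 0.063), the SB call on chromosome 6 and the share call on chromosome 3. The labels do not say whether the numbers pair the livers, and the best match of a liver was its own number in 1 case.

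The ratio over all 19 windows, as a geometric mean over livers, was 1.065 in PB and 1.122 in SB livers, with PB at 0.950 of SB. It was 1.188 in PB and 1.169 in SB with windows of 1 Mb, where PB was 1.017 of SB, and 1.130 in PB with windows of 3 Mb. Against 5 Mb it was 0.989 in PB and 1.079 in SB. Against the rest of the autosome it was 1.205 in SB, with PB at 0.909 of SB. The mean of the 19 log2 ratios gave 0.995 in PB and 1.054 in SB, and thinning gave 1.081 in SB. Leaving out 1 liver gave 1.060 to 1.071 in PB, 1.115 to 1.125 in SB and 0.945 to 0.956 for PB over SB. Leaving out 1 chromosome gave 1.034 to 1.107 in PB and 0.933 to 0.964 for PB over SB. In SB it gave 1.087, without chromosome 2, to 1.160, without chromosome 13.

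The following windows changed direction as log2 values. With windows of 1 Mb, chromosome 15 had -0.45 in PB and -0.28 in SB, chromosome 7 had -0.21 in PB, and PB minus SB was -0.43 on chromosome 3. With windows of 3 Mb, chromosome 10 had 0.55 in PB and 0.10 in SB (PB minus SB, 0.45), chromosome 14 had 0.20 in PB and 0.19 in SB, chromosome 18 had -0.44 in PB and -0.041 in SB, and chromosomes 3, 4 and 7 had 0.035, -0.13 and -0.19 in PB. With windows of 5 Mb, chromosome 10 had 0.47 in PB and 0.046 in SB (PB minus SB, 0.42), chromosome 14 had 1.06 in PB and 0.65 in SB (PB minus SB, 0.41), chromosome 18 had -0.96 in PB and -0.44 in SB, chromosomes 2 and 4 had -0.10 and -0.45 in PB, chromosome 5 had -0.030 in SB, and PB minus SB was -0.12 on chromosome 3 and -0.12 on chromosome 13.

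Against 5 Mb, chromosome 12 had 0.65 in PB and 0.42 in SB, chromosome 15 had -0.096 in PB and -0.035 in SB, chromosome 8 had -0.15 in PB and -0.14 in SB, and chromosomes 3, 7, 16, 18 and 19 had 0.21, -0.14, -0.25, -0.047 and -0.31 in PB. Chromosome 6 had -0.058 in SB, and PB minus SB was -0.064 on chromosome 5. Against 20 Mb, chromosomes 7, 18 and 19 had -0.11, -0.18 and -0.29 in PB. Without the last 200 kb, chromosomes 16 and 18 had -0.12 and -0.15 in PB. Without positions in more than 1 liver, PB minus SB in share was -0.29 on chromosome 11. Thinning gave -0.27 in SB on chromosome 5, and -0.053 in PB and -0.36 in SB on chromosome 6, with and without the filter. Without the filter it also gave -0.075 in PB on chromosome 4, -0.13 in SB on chromosome 16, -0.33 in PB and -0.31 in SB on chromosome 18, and 0.13 for PB minus SB on chromosome 19. Of 3438 window values under alternatives, 33 others changed sign without passing the test under either setting.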
